A study of Mus musculus with 2 samples.

Results

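Disallowed genes are genes that most tissues use and that mature β cells keep very low, and 9 of them were followed here through the islet: *Ldha*, *Slc16a1*, *Acot7*, *Oat*, *Igfbp4*, *Fgf1*, *Olfm1*, *Rest* and *Smad3*. They were taken by symbol from the 31053 genes listed for both libraries, and all 9 were found. In barcodes led by insulin, *Ldha* was counted at 1.99 counts per 1000000 UMIs (CPM) in WT and 1.77 CPM in Npc1KO, against 288 and 293 CPM in endothelial barcodes. The share of UMIs that lay in insulin-led barcodes was near the median of 32 marker genes of non-endocrine cells for *Ldha*, *Slc16a1*, *Igfbp4* and *Rest*, although the macrophage markers among them were lower. It was higher for *Oat*, *Olfm1*, *Fgf1*, *Smad3* and *Acot7*, and for *Acot7* most of the UMIs lay in barcodes that also held somatostatin.

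β cells couple glucose to insulin release by sending pyruvate into mitochondria, and lactate dehydrogenase A (*Ldha*) and the plasma membrane carrier of lactate and pyruvate, monocarboxylate transporter 1 (*Slc16a1*), would divert it. Forced expression of either one is known to disturb insulin release, the carrier by letting circulating pyruvate act as a secretagogue. The other disallowed genes belong to fatty acyl-CoA and amino acid metabolism, to growth factor signalling and to the repression of neuronal genes, and several of them are still falling in β cells during the first weeks after birth.

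The data were droplet single cell RNA sequencing (10x Genomics) of dispersed islet cells from 1 WT and 1 Npc1KO library, each a pool of 3 female mice aged 2 weeks. Npc1KO stands for *Npc1*-/- mice on the C57BL/6J background, which lack the lysosomal cholesterol transporter in every cell of the body, and the WT mice were littermates from heterozygous parents. No other allele or treatment is given for either group, and the labels name v3 reagents where the methods name v2. As each genotype has a single library, differences between them cannot be set against a spread of replicates. No p-value is given, and every interval is an exact 95% interval for counting error only.

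A UMI marks 1 captured molecule. After the study's limits on genes, UMIs and mitochondrial and haemoglobin share, but without its removal of double cells, 4628 of 8569 WT barcodes with 94096566 UMIs and 4269 of 7646 Npc1KO barcodes with 94392651 UMIs were kept, and 3 of the kept barcode sequences occurred in both libraries. Barcodes were put into 8 classes, first by the hormone with most UMIs if it took at least 10% of them, then by markers. The classes held 1833 WT and 1826 Npc1KO insulin-led, 1048 and 857 glucagon-led, 189 and 141 somatostatin-led and 411 and 442 *Ppy*/*Pyy*-led barcodes. A further 435 and 433 were endothelial, 236 and 252 stellate, 65 and 67 mesenchymal and 59 and 32 macrophage. The remaining kept barcodes were in none of these 8 classes. By their markers they included 141 WT and 1 Npc1KO B cell barcodes, and 70 and 0 T cell barcodes, so the 2 preparations differed in these. Their UMIs count in the library totals used for shares. All 8 markers of β cells, and all 8 of each non-endocrine class, were highest in their own class in both libraries. Of the glucagon-led class 7 of 8 α cell markers were, and of the somatostatin-led class 6 of 8 δ cell markers. Only 4 of 8 PP cell markers in WT and 3 in Npc1KO were highest in the *Ppy*/*Pyy*-led class, which is therefore named by its genes. The non-endocrine classes were set by these same lists of 8 markers. The hormone genes that set the other classes are also among the markers. These counts were thus partly fixed by the sorting and are no separate check of the classes. *Npc1* had 319 UMIs in WT and 143 in Npc1KO insulin-led barcodes, a log2 ratio of -1.25 (-1.55 to -0.97), so it was lower but still counted in the knockout library.

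*Ldha* encodes the subunit that favours the conversion of pyruvate to lactate. It lies on chromosome 7 (mm10, 46841475 to 46855627, plus strand). In insulin-led barcodes it had 109 UMIs in WT and 96 in Npc1KO, found in 45 and 48 barcodes. Its levels were 3.73 and 2.62 CPM in glucagon-led, 8.47 and 5.76 CPM in somatostatin-led, and 3.56 and 2.25 CPM in *Ppy*/*Pyy*-led barcodes. Every non-endocrine class stood at least an order of magnitude above these. *Ldha* reached 427 and 384 CPM in stellate, 339 and 287 CPM in macrophage and 182 and 123 CPM in mesenchymal barcodes. The order of classes was the same in both libraries except that endothelial and macrophage barcodes changed places, and the intervals of those classes overlapped. The intervals of the insulin-led and *Ppy*/*Pyy*-led classes overlapped as well.

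*Slc16a1* (chromosome 3, 104638668 to 104658462, plus strand) was nearly absent from insulin-led barcodes, with 3 UMIs in WT and 5 in Npc1KO, each in a barcode of its own. This is 0.0548 CPM (0.0113 to 0.160) and 0.0923 CPM (0.030 to 0.215). It was highest in endothelial barcodes, at 22.4 and 16.2 CPM, followed by mesenchymal barcodes at 20.4 and 9.21 CPM, whose intervals overlapped with the endothelial ones. Stellate barcodes, which were the highest class for *Ldha*, held only 1 and 2 UMIs of *Slc16a1*. Glucagon-led barcodes had 17 and 9 UMIs and *Ppy*/*Pyy*-led barcodes 10 and 8, or 1.23 and 0.855 CPM in the latter. Somatostatin-led barcodes held 1 UMI in WT and macrophage barcodes 5. Both had 0 in Npc1KO, for which 3 counts would be 1.23 and 5.62 CPM and the exact intervals end at 1.52 and 6.91 CPM.

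*Oat*, the mitochondrial enzyme that turns ornithine into glutamate semialdehyde, was not rare in insulin-led barcodes. It had 748 UMIs in WT and 592 in Npc1KO (13.7 and 10.9 CPM) spread over 516 and 440 barcodes. Mesenchymal barcodes were highest at 337 and 338 CPM, then stellate barcodes at 184 and 173 CPM. Among hormone-led classes the glucagon-led class stood out at 73.8 and 65.1 CPM, above 27.4 and 23.5 CPM in *Ppy*/*Pyy*-led and 18.4 and 13.2 CPM in somatostatin-led barcodes. The intervals of somatostatin-led and insulin-led barcodes overlapped in both libraries. *Oat* (chromosome 7, 132557478 to 132576398, minus strand) overlaps *Fgfr2* on the same strand in the annotation, so reads from the shared stretch could affect its count. Same-strand overlaps are also annotated for *Slc16a1* (*Gm43581* and *Gm43585*), *Acot7* (*Gm13096*) and *Rest* (*Mir5098*).

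*Acot7* encodes a thioesterase that frees fatty acids from acyl-CoA and is known best from neurons. It had 39 and 22 UMIs in insulin-led barcodes (0.712 and 0.406 CPM) and 17 and 10 in glucagon-led barcodes. Somatostatin-led barcodes held 144 UMIs in WT, or 53.0 CPM (44.7 to 62.4), and 52 in Npc1KO, or 21.4 CPM (15.97 to 28.04). In WT this was above every other class. In Npc1KO the endothelial level of 23.7 CPM was the highest and the interval of the somatostatin-led class overlapped with it. *Ppy*/*Pyy*-led barcodes followed with 10.9 and 5.56 CPM. *Sst* took 10% of UMIs or more in 88 WT and 100 Npc1KO barcodes of that class. Macrophage barcodes held 19 UMIs in WT and 2 in Npc1KO. The gene lies on chromosome 4 (152178134 to 152271855, plus strand).

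**Figure D1:**
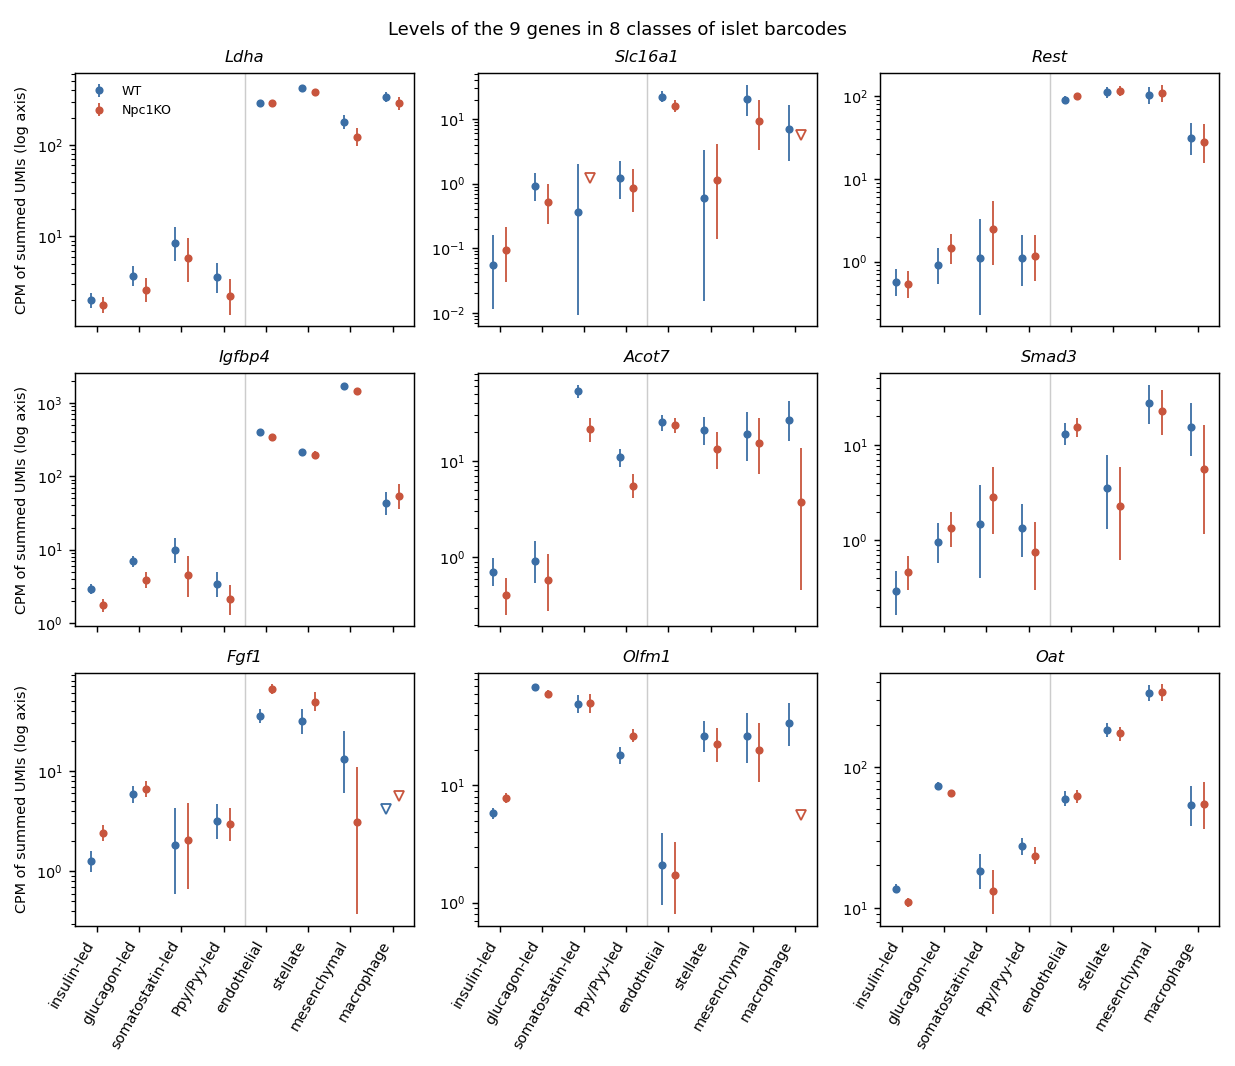
Levels of the 9 genes by class in CPM of summed UMIs on a log axis, WT in blue and Npc1KO in red, with exact 95% Poisson intervals; open triangles mark 0 UMIs and stand at the level that 3 counts would give. *Ldha*, *Rest* and *Igfbp4* separate the 4 hormone-led classes (left of the grey line) from the 4 others, *Acot7* is highest in WT somatostatin-led barcodes at 53.0 CPM, and within WT *Olfm1* is lowest in endothelial barcodes at 2.08 CPM.

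Of the genes for growth factor signalling, *Igfbp4* encodes a secreted protein that binds and holds back insulin-like growth factors. It lies on chromosome 11 (99041244 to 99054392, plus strand). It reached 1679.5 CPM in WT and 1465 CPM in Npc1KO mesenchymal barcodes, then 405 and 346 CPM in endothelial and 212 and 198 CPM in stellate barcodes. Insulin-led barcodes held 159 and 95 UMIs, or 2.90 and 1.75 CPM, in 42 and 38 barcodes. Glucagon-led barcodes stood at 6.98 and 3.84 CPM and somatostatin-led barcodes at 9.94 and 4.52 CPM. The 27 WT UMIs of the somatostatin-led class came from 4 barcodes.

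*Fgf1* encodes acidic fibroblast growth factor, which leaves the cell without a signal peptide. In the annotation it lies on chromosome 18 opposite *Arhgap26*. Endothelial barcodes held 154 UMIs in WT and 342 in Npc1KO, or 35.6 CPM (30.2 to 41.7) and 65.9 CPM (59.1 to 73.3). Stellate barcodes stood at 31.6 and 49.4 CPM, with intervals that overlapped with the endothelial ones. Insulin-led barcodes held 69 and 131 UMIs, or 1.26 and 2.42 CPM, and these were spread thinly over 64 and 114 barcodes. Glucagon-led barcodes were higher at 5.84 and 6.64 CPM. No UMI was found in macrophage barcodes, and the 3 counts that a 0 allows would be 4.23 CPM in WT and 5.62 CPM in Npc1KO.

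*Smad3* encodes the transcription factor that receptors of the TGF-beta and activin type phosphorylate. It had 16 and 25 UMIs in insulin-led barcodes (0.292 and 0.462 CPM), each in a barcode of its own. Mesenchymal barcodes held 19 and 15 UMIs (27.6 and 23.0 CPM) and endothelial barcodes 57 and 80 (13.2 and 15.4 CPM), and their intervals overlapped in both libraries. Stellate barcodes, at 3.58 and 2.30 CPM, could not be told from somatostatin-led barcodes at 1.47 and 2.88 CPM. The gene lies on chromosome 9 (63646767 to 63757994, minus strand).

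*Rest* encodes a zinc finger repressor that keeps neuronal genes silent outside neurons, and endocrine cells of the islet, which use many of those genes, are known to lack it. It lies on chromosome 5 (77265491 to 77286432, plus strand). Stellate, mesenchymal and endothelial barcodes stood close together at 111, 103 and 90.2 CPM in WT and 116, 109 and 100.8 CPM in Npc1KO, with overlapping intervals. Macrophage barcodes were lower at 31.0 and 28.1 CPM. Insulin-led barcodes held 31 and 29 UMIs (0.566 and 0.536 CPM). The other hormone-led classes ranged from 0.919 to 2.47 CPM, and their intervals overlapped with one another.

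*Olfm1*, for the secreted glycoprotein olfactomedin 1 of nervous tissue, had another order of classes than *Rest*. It was highest in glucagon-led barcodes with 1271 and 1042 UMIs (68.7 and 60.7 CPM) and in somatostatin-led barcodes (49.7 and 50.2 CPM). Endothelial barcodes held 9 UMIs in each library, or 2.08 and 1.74 CPM, which was below the insulin-led level of 5.79 CPM (317 UMIs) in WT and 7.76 CPM (420 UMIs) in Npc1KO. The intervals of those classes did not overlap. Stellate barcodes, at 26.2 CPM in WT and 22.4 CPM in Npc1KO, stood above the insulin-led level. So did mesenchymal barcodes, at 26.2 and 19.96 CPM. WT macrophage barcodes held 24 UMIs of *Olfm1*, from 8 of 59 barcodes, and Npc1KO macrophage barcodes 0 from 32. The gene lies on chromosome 2 (28192992 to 28230736, plus strand).

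Promoter sequence was searched for 7 of the 9 genes (RefSeq, GRCm38.p6, the assembly also called mm10) as the 250 bases before each start. No window of *Rest* or *Fgf1* was searched. The pair for lactate, *Ldha* and *Slc16a1*, is shown because these were the only genes of the 7 with the letters ACGTG, the core of hypoxia response elements, on either strand. *Igfbp4* is shown as the only one with TATAAA, the letters of a TATA box. Capitals mark exact matches on either strand to the motifs searched. These were ACGTG, the E-box letters CACGTG, which contain ACGTG on both strands, the GC box letters GGGCGG, then CCAAT and the TATA box. The windows are chr7:46845554-46845803, chr3:104638414-104638663 and chr11:99040994-99041243, all on the plus strand.
Ldha: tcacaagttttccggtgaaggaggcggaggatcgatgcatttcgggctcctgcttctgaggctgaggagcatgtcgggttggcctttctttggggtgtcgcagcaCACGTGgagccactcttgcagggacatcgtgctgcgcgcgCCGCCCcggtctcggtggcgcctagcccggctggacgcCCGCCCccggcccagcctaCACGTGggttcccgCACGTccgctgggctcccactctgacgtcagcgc
Slc16a1: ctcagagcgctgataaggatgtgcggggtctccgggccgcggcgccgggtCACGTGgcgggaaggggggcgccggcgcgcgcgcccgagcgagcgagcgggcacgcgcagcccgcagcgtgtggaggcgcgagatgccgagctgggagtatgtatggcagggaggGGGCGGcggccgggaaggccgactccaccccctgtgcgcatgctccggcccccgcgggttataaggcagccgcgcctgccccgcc
Igfbp4: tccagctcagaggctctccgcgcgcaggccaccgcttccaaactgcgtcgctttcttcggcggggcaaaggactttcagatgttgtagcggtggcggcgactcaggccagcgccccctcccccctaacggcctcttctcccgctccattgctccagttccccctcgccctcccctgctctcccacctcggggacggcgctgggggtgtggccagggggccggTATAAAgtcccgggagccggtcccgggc

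The *Ldha* window held CACGTG at 2 places, 145 and 48 bases before the start, and 1 more ACGTG 34 bases before it. The bases after this start were not found in an annotated transcript of *Ldha*. Those after its second start were, and that window held none of the motifs. *Slc16a1* held CACGTG once, 200 bases before the start. Of all 32851 promoter windows in the table, 6.02% held CACGTG and 16.6% held ACGTG on either strand. GGGCGG, which 32.7% of all windows held, was found in 6 of the 9 windows of these genes (*Ldha* and *Olfm1* have a second start each). In *Igfbp4* TATAAA began 28 bases before the start (12.4% of all windows), and *Oat* was the only one with CCAAT (33.8%). A match is a match of letters, and no binding was measured.

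The classes were compared within each library by the log2 ratio of CPM over the insulin-led class, set relative to the median gene of the same comparison. This was needed because insulin took a median of 53.2% of UMIs in WT and 50.9% in Npc1KO insulin-led barcodes, so that the median gene was higher by 1.04 and 0.93 in endothelial barcodes on the log2 scale. A gene counted as higher when it was at least 4-fold above in both libraries. In endothelial barcodes 7 of the 9 genes were higher, against 13.6% of all genes, and *Olfm1* was at least 4-fold lower, against 10.6%. In stellate barcodes 7 were higher (12.1% of all genes), in mesenchymal barcodes 7 (12.5%) and in macrophage barcodes 6 (10.3%). The stellate and macrophage counts include *Slc16a1*, with 1 and 2 UMIs in stellate barcodes and 0 in Npc1KO macrophage barcodes, where it passed only by the 0.5 counts added, and the macrophage count also rests on 2 UMIs of *Acot7* and 3 of *Smad3* in Npc1KO. Only 1 of the 9 was higher in glucagon-led barcodes (2.16%), 2 in somatostatin-led (3.63%) and 2 in *Ppy*/*Pyy*-led barcodes (2.63%). None of the 9 was at least 4-fold lower in the other 6 classes, where 1.39% of all genes were in glucagon-led, 1.4% in somatostatin-led, 0.785% in *Ppy*/*Pyy*-led, 9.21% in stellate, 7.63% in mesenchymal and 8.83% in macrophage barcodes. The background is of genes with at least 5 CPM on average over the classes, a limit that all 9 met through the classes in which they are high.

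*Ldha*, *Igfbp4* and *Rest* were higher in all 4 non-endocrine classes and in no hormone-led class. The endothelial ratio of *Ldha* was 6.13 in WT and 6.43 in Npc1KO, that of *Igfbp4* 6.08 and 6.69, and that of *Rest* 6.25 and 6.60. *Acot7* was higher in 6 of 7 classes, with 5.47 and 5.05 in somatostatin-led barcodes, and not in glucagon-led barcodes (-0.17 and 0.10). *Slc16a1* was higher in endothelial (7.42 and 6.39), mesenchymal (7.37 and 5.80) and *Ppy*/*Pyy*-led barcodes (3.86 and 2.74), with 3 and 5 UMIs on the insulin-led side. Stellate barcodes, with 1 and 2 UMIs, and macrophage barcodes, with 5 and 0, held too few to tell, so no fold is given for these classes. By the 4-fold rule *Oat* was higher only in stellate and mesenchymal barcodes, and *Fgf1* only in endothelial and stellate barcodes. *Olfm1* was higher only in glucagon-led (3.01 and 2.51) and somatostatin-led barcodes (2.37 and 2.05). In glucagon-led barcodes *Oat* (1.87 and 2.11) missed the rule narrowly in WT, and *Slc16a1* (3.33 and 1.98) in Npc1KO. *Smad3* was higher in endothelial, mesenchymal and macrophage barcodes.

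In CPM, 6 of the 9 genes were lowest in the insulin-led class in both libraries, the others being *Slc16a1*, *Fgf1* and *Olfm1*. The share of all genes that were lowest there was not counted, so the 6 cannot be set against it. Because insulin is in the total, the median gene was itself higher in every other class. Its log2 ratio ran from 0.42 (*Ppy*/*Pyy*-led, Npc1KO) to 1.13 (stellate, WT). The place of the insulin-led class as lowest depended on the settings among hormone-led classes. The non-endocrine counts above stayed within 1.5 times of those reported. That order held for 2 genes when hormone genes were left out of the totals or TMM factors were used, and for 0 when a leading hormone had to take 25% of UMIs. At 25% the insulin-led CPM of all 9 genes stayed within their intervals in both libraries. The somatostatin-led class, with a median *Sst* share of 17.3% in WT and 16.4% in Npc1KO, loses most of its barcodes at that cut.

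How much of the insulin-led counts other barcodes could have given was read from genes that β cells are not known to use. The measure was the share of a gene's UMIs in the library that lay in insulin-led barcodes. For the 32 markers of endothelial, stellate, mesenchymal and macrophage cells the median share was 3.39% in WT and 3.04% in Npc1KO. Macrophage markers had the lowest median, 0.529% and 0.40%. *Col6a3*, at 59.6% and 37.2%, and *C1qa*, at 21.8% and 25.5%, stood apart from the rest. *Gcg* had 3.01% and 2.46% of its UMIs in insulin-led barcodes and *Sst* 9.96% and 10.0%.

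*Ldha*, with 3.52% (2.90 to 4.24) in WT and 3.38% (2.74 to 4.11) in Npc1KO, lay at the marker level. At the median marker share 105 UMIs were expected in WT and 109 were counted, a ratio of 1.04 (0.855 to 1.26). In Npc1KO 86.2 were expected and 96 counted, a ratio of 1.11 (0.902 to 1.36). *Rest* gave ratios of 1.08 (0.731 to 1.53) and 0.993 (0.665 to 1.43), *Igfbp4* 1.17 (0.999 to 1.37) and 0.860 (0.696 to 1.05), and *Slc16a1* 0.515 (0.106 to 1.51) and 1.24 (0.401 to 2.88). Over all insulin-led barcodes, no share beyond the median of the markers was detectable for these 4 genes at this depth. Without the barcodes that held several markers, the interval of *Ldha* lay above that median in both libraries. Those of *Slc16a1* and *Rest* did so in Npc1KO only, on 3 and 9 UMIs. Leaving out those barcodes lowers the marker median itself, so this step cannot tell whether insulin-led cells express these genes. The values are given with the kinds of barcode.

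The other 5 genes exceeded the expectation from the median of all 32 markers in both libraries. *Oat* had 21.7% and 19.3% of its UMIs in insulin-led barcodes, 7.92-fold (7.36 to 8.51) and 7.62-fold (7.02 to 8.26) the expected number. *Olfm1* had 15.5% and 19.7%, or 5.21-fold and 7.83-fold. *Fgf1* had 15.9% and 17.3%, or 5.41-fold and 6.66-fold. *Smad3* had 9.64% and 14.3%, or 3.04-fold (1.74 to 4.94) and 5.31-fold (3.44 to 7.84) on few UMIs. Mesenchymal markers, of the class in which *Smad3* was highest, had a median share of 5.90% in WT and 3.39% in Npc1KO. Against these the WT excess of *Smad3* was smaller, and its WT share was also below that of *Sst*. *Acot7* had 7.30% (5.24 to 9.85) and 6.85% (4.34 to 10.2), which was 2.25-fold and 2.35-fold the marker expectation but below the share of *Sst*. Of the 32 markers, 4 in WT and 3 in Npc1KO had a share at or above that of *Acot7*. The intervals of these folds hold the marker median fixed and do not cover the spread of the markers.

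**Figure D2:**
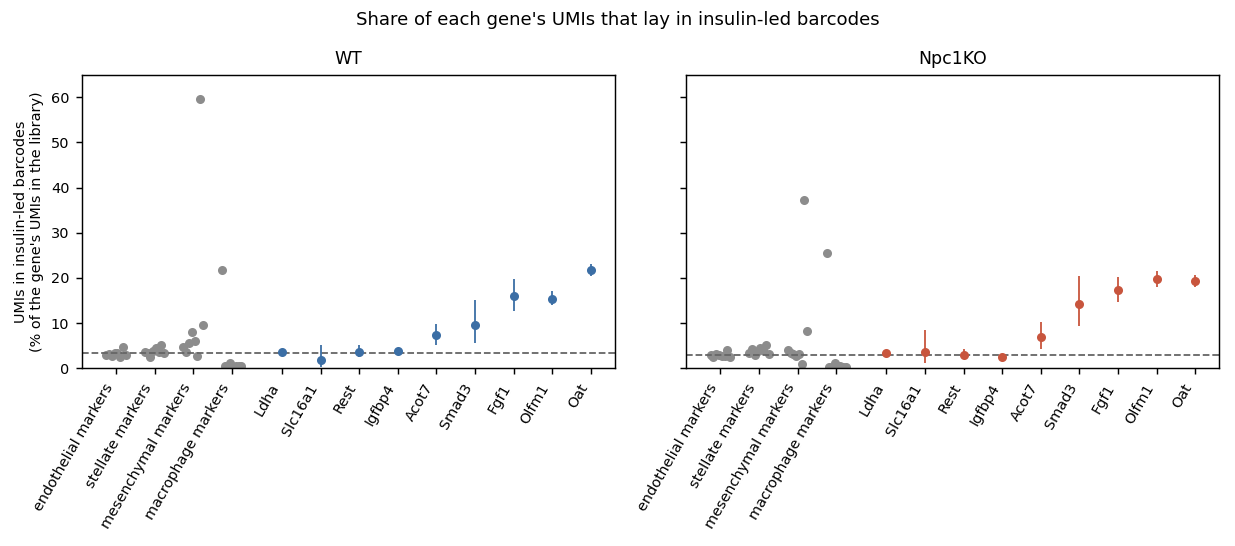
Share of each gene's UMIs in the library that lay in insulin-led barcodes, in percent, with grey points for the 8 markers of each non-endocrine class, a dashed line at the median of the 32 markers (3.39% in WT, 3.04% in Npc1KO) and coloured points with exact 95% Clopper-Pearson intervals for the 9 genes. *Ldha*, *Slc16a1*, *Rest* and *Igfbp4* lie at the dashed line, and *Fgf1*, *Olfm1* and *Oat* lie above it at 15.5% or more.

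The insulin-led barcodes that carried these UMIs were then looked at. Barcodes with 3 or more different markers of 1 non-endocrine class numbered 37 in WT and 47 in Npc1KO, or 2.02% and 2.57% of the class. None of the 9 genes is among the markers. These few barcodes held 77.1% of the *Ldha* UMIs in WT and 78.1% in Npc1KO, 88.1% and 82.1% of those of *Igfbp4*, and 77.4% and 69.0% of those of *Rest*. They held only 6.42% and 5.57% of *Oat*, 2.84% and 4.76% of *Olfm1*, 14.5% and 13.0% of *Fgf1*, and 12.5% and 12% of *Smad3*. Their median of 36770 UMIs in WT and 35538 in Npc1KO was above that of the class, 30417 and 30094.

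*Acot7* behaved in another way. The marker barcodes held 5.13% and 22.7% of its insulin-led UMIs. A further 69.2% in WT and 63.6% in Npc1KO lay in the 43 and 52 barcodes with somatostatin at 2% of UMIs or more, where *Acot7* stood at 16.4 and 7.86 CPM. Of *Olfm1*, 13.6% and 8.57% lay in those barcodes.

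In the 1713 WT and 1697 Npc1KO insulin-led barcodes with neither such markers nor *Gcg* or *Sst* at 2%, 20 and 17 UMIs of *Ldha* were left, 2 and 2 of *Slc16a1*, 5 and 8 of *Rest*, 16 and 14 of *Igfbp4* and 9 and 3 of *Acot7*. *Oat* kept 643 and 490 UMIs there, *Olfm1* 235 and 345, *Fgf1* 57 and 100, and *Smad3* 13 and 20. A separate estimate set the free RNA of a droplet by insulin in endothelial barcodes, with a median of 163 insulin UMIs in WT and 107 in Npc1KO. It came to 529 and 343 free UMIs per barcode, and over the whole insulin-led class to 29.7 and 15.3 UMIs of *Ldha*, 7.88 and 5.14 of *Rest*, 37.5 and 19.3 of *Igfbp4*, 1.81 and 0.753 of *Slc16a1* and 5.61 and 2.19 of *Acot7*. All insulin-led barcodes together held more than this for each gene, 109 and 96 UMIs for *Ldha*. The UMIs left after leaving out those barcodes were below it for *Igfbp4* in both libraries and for *Ldha* and *Rest* in WT. They were above it, on few UMIs, for *Slc16a1* and *Acot7* in both libraries and for *Ldha* and *Rest* in Npc1KO. In WT *Acot7* had 9 against 5.61, and in Npc1KO *Rest* had 8 against 5.14. The estimate is for the whole class, but the UMIs left come from 1713 and 1697 barcodes. The median marker share also fell, since the markers define which barcodes were left out. Without the marker barcodes alone it was 0.357% and 0.393%. Against that *Ldha* stood at 2.27-fold (1.47 to 3.35) and 1.89-fold (1.17 to 2.88) on 25 and 21 UMIs, and *Rest* at 2.31-fold (0.928 to 4.75) and 2.40-fold (1.10 to 4.55) on 7 and 9. *Slc16a1* stood at 3.34-fold (0.404 to 12.1) and 5.80-fold (1.197 to 17.0) on 2 and 3 UMIs, and *Igfbp4* at 1.32-fold (0.797 to 2.07) and 1.196-fold (0.697 to 1.92). *Ldha* thus had an interval above the median of the markers in both libraries, and *Rest* and *Slc16a1* in Npc1KO. Of the 32 markers, 5 in WT and 7 in Npc1KO still had a share at or above that of *Ldha*. In Npc1KO 5 did for *Rest* and 3 for *Slc16a1*. As the step lowered the marker median itself, it cannot tell whether insulin-led cells express these genes. With the barcodes of a second hormone left out as well, the marker share was 0.333% and 0.373%, and *Ldha* stood at 1.95-fold (1.19 to 3.01) and 1.61-fold (0.935 to 2.57). The intervals of *Rest*, *Slc16a1* and *Igfbp4* then included 1 in both libraries. That of *Acot7* included 1 in Npc1KO, at 2.52-fold (0.519 to 7.36), but not in WT, at 5.13-fold (2.34 to 9.73). For *Oat* the estimate was 32.3 and 17.0 UMIs, for *Olfm1* 19.4 and 12.7, for *Fgf1* 4.17 and 4.56 and for *Smad3* 1.64 and 0.975, all far below what was left.

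**Figure D3:**
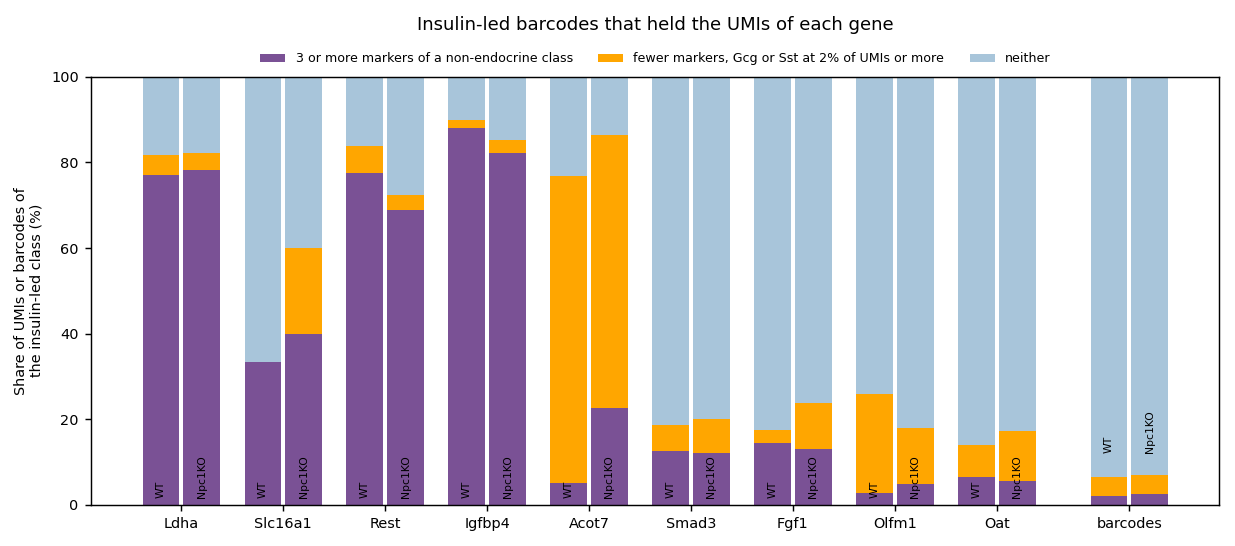
Share of each gene's UMIs in the insulin-led class, in percent, by the kind of barcode that held them, with the share of barcodes of each kind at the right. Purple (3 or more markers of a non-endocrine class) makes up 2.02% of WT and 2.57% of Npc1KO barcodes but 77.1% and 78.1% of *Ldha* UMIs, and orange (*Gcg* or *Sst* at 2% or more) holds most UMIs of *Acot7*.

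Levels also varied with the insulin share of a barcode. In barcodes with over 50% insulin, *Ldha* had 17 UMIs in WT and 9 in Npc1KO (0.432 and 0.288 CPM), against 5.72 and 3.24 CPM in those with 25 to 50%. *Olfm1* fell from 10.7 and 10.3 CPM to 3.81 and 5.27 CPM. *Oat* went from 18.8 and 13.6 CPM to 11.3 and 8.54 CPM, so that 1248 WT and 1000 Npc1KO barcodes with the most insulin still held 446 and 267 of its UMIs. Part of each step is arithmetic, since insulin is in the total.

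Between genotypes, *Fgf1* was higher in Npc1KO insulin-led barcodes and *Igfbp4* and *Acot7* were lower. A fold of 1.5 relative to the median gene was passed upwards by 1 of the 9 genes and downwards by 2, where 1.1% and 1.11% of all genes with at least 5 CPM passed it. Only *Oat* and *Olfm1* met that limit themselves, so the background is of genes with more UMIs. The log2 ratio of *Fgf1* was 0.82 (0.39 to 1.27) on 69 and 131 UMIs. It was 0.85 without the marker barcodes and 0.83 without the barcodes of highest doublet score. *Olfm1* stood at 0.31 (0.09 to 0.52), with 0.28 and 0.48 under the same settings but 0.19 (-0.07 to 0.44) with a stricter filter on cells, and *Oat* at -0.44 (-0.59 to -0.28), with -0.42 and -0.41.

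For *Igfbp4*, *Ldha*, *Rest* and *Acot7* the ratio turned with the barcodes kept. *Igfbp4* stood at -0.84 (-1.22 to -0.47), at -0.25 (-1.29 to 0.77) without the marker barcodes and at 0.07 (-0.63 to 0.78) without those of highest doublet score. *Ldha* went from -0.28 (-0.69 to 0.13) to -0.34 (-1.25 to 0.55) and 1.08 (0.26 to 2.02). *Rest* went from -0.19 (-0.98 to 0.58) to 0.25 (-1.32 to 1.93) and 2.02 (0.37 to 4.63). *Acot7* went from -0.91 (-1.75 to -0.14) to -1.19 and 1.46 (-0.35 to 4.11). The doublet step took 144 WT and 127 Npc1KO insulin-led barcodes, and left 15.6% of *Ldha* UMIs in WT but 41.7% in Npc1KO, 9.68% and 51.7% of *Rest*, and 7.69% and 45.5% of *Acot7*. *Slc16a1* (0.55, -1.72 to 3.32) and *Smad3* (0.53, -0.42 to 1.55) had intervals that included 0.

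**Figure D4:**
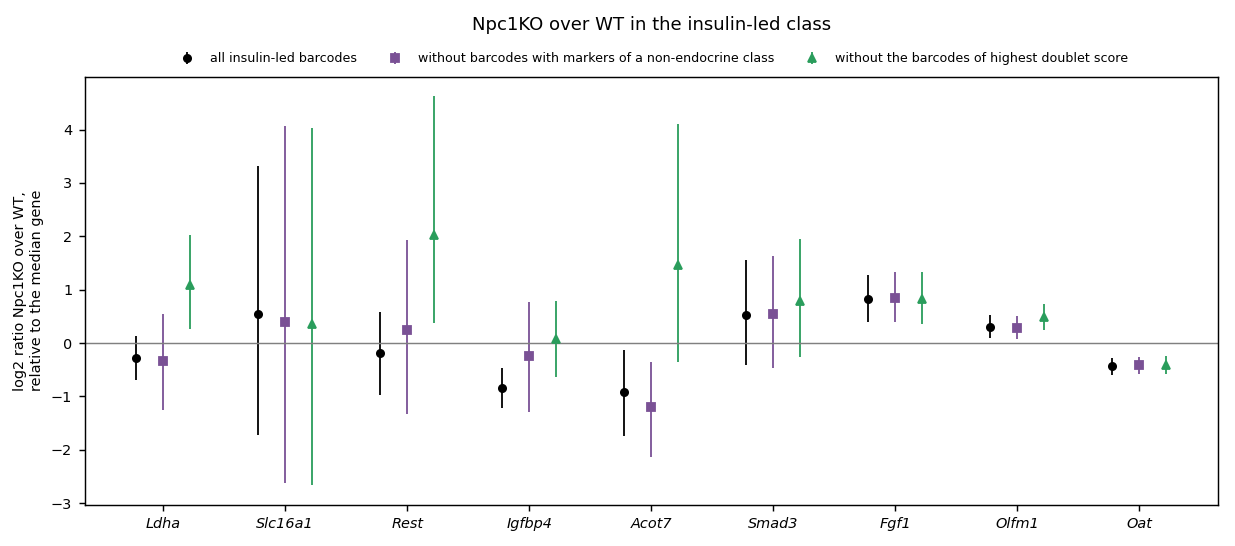
Log2 ratio of Npc1KO over WT in the insulin-led class relative to the median gene, with 95% conditional binomial intervals, for all insulin-led barcodes (black), without the barcodes that hold markers of a non-endocrine class (purple) and without the barcodes of highest doublet score (green). *Fgf1*, *Olfm1* and *Oat* keep their side in all 3, and *Acot7*, *Igfbp4*, *Ldha* and *Rest* are below 0 with all barcodes and above 0 in the last.

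In the other classes, the count of the 9 genes at least 1.5-fold higher and lower in Npc1KO was 1 and 3 in glucagon-led barcodes (0.484% and 0.824% of all genes), 2 and 3 in somatostatin-led (5.11% and 4.54%) and 0 and 4 in *Ppy*/*Pyy*-led barcodes (1.59% and 1.86%). It was 1 and 0 in endothelial (1.62% and 3.37%), 2 and 1 in stellate (5.94% and 7.17%), 0 and 2 in mesenchymal (14.5% and 15.7%) and 0 and 4 in macrophage barcodes (17.3% and 21.1%). These shares are of genes with at least 5 CPM on average in the class. Only 4 of the 9 met that limit in glucagon-led, 5 in somatostatin-led and 3 in *Ppy*/*Pyy*-led barcodes. Of the 4 lower in *Ppy*/*Pyy*-led barcodes only *Acot7* met it, and the intervals of *Ldha*, *Igfbp4* and *Smad3* included 0. Several of the counts rest on under 10 UMIs, and the genes with intervals that exclude 0 are described here. *Fgf1* was higher in Npc1KO endothelial barcodes by 0.88 (0.60 to 1.16) and in stellate barcodes by 0.64 (0.14 to 1.17). Both held without the barcodes of highest doublet score, at 0.90 and 0.63. In glucagon-led barcodes *Fgf1* stood at 0.16 (-0.24 to 0.55). *Acot7* was lower in Npc1KO somatostatin-led barcodes, at -1.31 (-1.81 to -0.85), and in *Ppy*/*Pyy*-led barcodes, at -1.03 (-1.56 to -0.53). These values were -1.30 and -1.09 without marker barcodes and -1.32 and -1.30 without those of highest doublet score. Of the 189 WT somatostatin-led barcodes 78 held *Acot7*, and of the 141 in Npc1KO 34 did.

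*Acot7* was also lower in macrophage barcodes, at -2.52 (-5.95 to -0.75) on 19 and 2 UMIs, but its interval included 0 without those of highest doublet score (-8.22 to 0.24).

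*Igfbp4* was lower in Npc1KO glucagon-led barcodes, at -0.88 (-1.34 to -0.45), and in endothelial barcodes, at -0.23 (-0.33 to -0.14). It also stood at -1.11 (-2.31 to -0.09) in somatostatin-led barcodes. This value was -3.33 (-9.26 to -1.20) without marker barcodes on 17 and 1 UMIs and -2.10 (-4.69 to -0.49) without those of highest doublet score on 17 and 3. The 27 WT UMIs of *Igfbp4* in that class lay in 4 barcodes, with 15 in 1 of them. The intervals take each UMI as independent and do not cover such clumping, so a few barcodes could set this value. In mesenchymal barcodes *Igfbp4* stood at -0.16 (-0.28 to -0.03), and without those of highest doublet score at -0.09 (-0.22 to 0.04). Its glucagon-led value was -1.68 (-2.48 to -0.98) without marker barcodes, on 72 and 21 UMIs. *Oat* stood at -0.21 (-0.32 to -0.09) in glucagon-led and at -0.28 (-0.555 to -0.004) in *Ppy*/*Pyy*-led barcodes. The latter interval included 0 without marker barcodes (-0.51 to 0.06) and without those of highest doublet score (-0.52 to 0.06). *Oat* stood at -0.49 (-1.18 to 0.17) in somatostatin-led barcodes and at 0.04 in endothelial and mesenchymal barcodes, where the intervals included 0. *Ldha* in endothelial barcodes, with 1247 and 1519 UMIs, stood at 0.01 (-0.10 to 0.12), and *Rest* at 0.15 (-0.04 to 0.34). *Slc16a1* stood at -0.48 (-0.92 to -0.04) there, and *Ldha* at -0.52 (-0.95 to -0.11) in mesenchymal barcodes. A difference of these effects between classes was not tested.

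The 9 genes were set beside related lists, again as endothelial over insulin-led levels. Of 20 other disallowed genes, 18 of which met the limit of 5 CPM, 16 passed the 4-fold rule as higher in endothelial barcodes and 1 as lower, against 13.6% and 10.6% of all genes. One of the 16, *Smoc2*, passed in Npc1KO only by the counts added to 0 UMIs in both classes, so it has no fold there. The median log2 ratio was 5.36 in WT and 5.0 in Npc1KO, next to 4.42 and 4.91 for the 9 genes and 0 for all genes by definition. *Igf1*, for insulin-like growth factor 1, had the highest ratio in WT (7.64, and 7.0 in Npc1KO), followed by the transcription factor gene *Maf* (7.18 and 5.52). The lower one was *Dlk1*, an imprinted gene for a Notch-related membrane protein, with 8.05 and 10.2 CPM in insulin-led against 0.463 and 3.66 CPM in endothelial barcodes. Between genotypes 2 of the 20 were at least 1.5-fold higher in Npc1KO insulin-led barcodes (among them *Yap1* with 6 and 12 UMIs) and 3 lower (*Cxcl12* by -0.78, *Lmo4* by -0.82 and *Tgm2* by -0.62). Of all genes with at least 5 CPM there, 1.1% were higher and 1.11% lower. The genes named lay below that limit, the highest of them *Lmo4* at 3.39 CPM in WT and 2.09 CPM in Npc1KO. *Tgm2* had 26 and 18 UMIs, and no intervals are given for these ratios.

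Genes for lactate and pyruvate lay on both sides. Of 15, 13 of which met the limit of 5 CPM, 2 were counted as higher in endothelial barcodes and 3 as lower. Of all genes 13.6% were higher and 10.6% lower, so the count of higher ones was near that share. These higher ones, *Slc16a3* and *Hk2*, did not meet the limit. *Slc16a3*, for the lactate exporter MCT4, stood at 5.25 and 5.39 on 2 and 1 insulin-led UMIs. *Hk2* had 0 UMIs in both classes in Npc1KO, so its fold is not given. The glucose transporter gene *Slc2a2* (-5.35 and -6.21) and the pyruvate carboxylase gene *Pcx* (-4.08 and -4.10) were among the lower ones. *Ldhb*, for the other lactate dehydrogenase subunit, was at -0.96 and -0.84 and counted at 15.2 and 13.7 CPM in insulin-led barcodes.

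Of 10 neuronal and secretory genes known as targets of REST, 9 were lower in endothelial barcodes and 1 was higher, the reverse of *Rest* itself. The shares over all genes were 10.6% lower and 13.6% higher. The granin genes *Scg3* (-5.57 and -6.59) and *Chga* (-5.44 and -6.41) were lowest, *Vgf* (3.70 and 5.56 CPM in insulin-led barcodes) was at 0.463 and 0 CPM in endothelial barcodes, and *Stmn2*, for a microtubule regulator of growing axons, was the one higher at 7.25 and 6.81. None of 6 genes for REST partners, 5 of which met the limit of 5 CPM, passed in either direction. *Rcor1* (0.76 and 0.62) and *Hdac1* (0.35 and 0.52) were highest, *Rcor2* (-1.44 and -1.56) and *Kdm1a* (-0.62 and -0.82) lowest.

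Of 9 TGF-beta genes 6 were higher in endothelial barcodes, against 13.6% of all genes. They were led by the type II receptor gene *Tgfbr2* (7.38 and 7.37) and the inhibitor gene *Smad6* (6.46 and 6.84). The type I receptor gene *Tgfbr1* (-0.20 and -0.45) and *Smad2* (0.36 and 0.84) were lowest. Of 5 FGF genes 4 were higher, but only *Fgfr1* met the limit of 5 CPM on which the 13.6% of all genes rests. *Fgf2* (5.16 and 4.48, on 2 and 6 insulin-led UMIs) and *Fgfr3* (4.82 and 4.79, on 7 and 15) came first, with *Fgfr1* at 3.55 and 3.29 and *Fgfr4* not passing. Of 6 IGF genes 2 were higher, against 13.6% of all genes, the binding protein genes *Igfbp3* (7.62 and 7.98) and *Igfbp7* (3.57 and 3.73). The receptor gene *Igf1r* (-0.94 and -1.07) was lowest and *Igf2* (1.40 and 3.67) next on under 1 CPM in both classes. Of 9 genes for acyl-CoA hydrolysis and ornithine, 7 of which met the limit, 1 was higher and 1 lower, near the 13.6% and 10.6% of all genes. *Acot9* was higher (4.42 and 4.69), *Acot1* did not pass (1.54 and 1.92) and *Acot13* stood at -2.12 and -1.89. *Pycr1*, for proline synthesis, was lower, with 5.75 and 4.75 CPM in insulin-led against 0 and 0.193 CPM in endothelial barcodes.

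**Figure D5:**
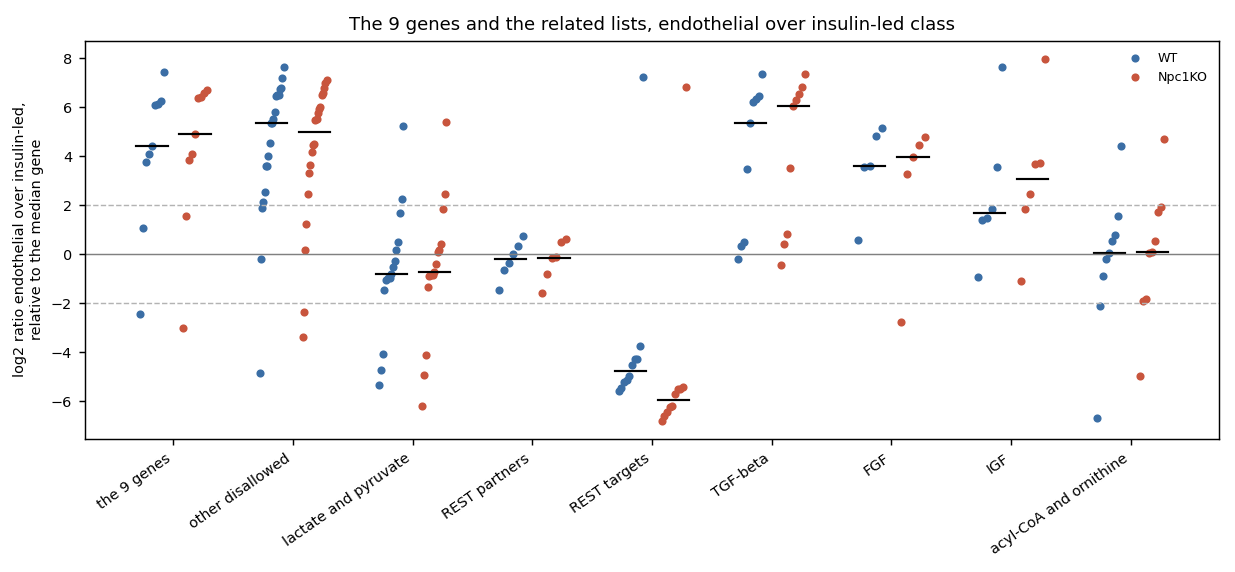
Log2 ratio of endothelial over insulin-led CPM relative to the median gene for the 9 genes and the 8 related lists, 1 point per gene, WT in blue and Npc1KO in red, with black bars at the medians and dashed lines at 4-fold. The other disallowed genes have medians of 5.36 and 5.0, near the 9 genes, and 9 of the 10 REST targets lie below the lower line.

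Across the 16 class and library sums, the genes most alike in log2(CPM + 1) by Pearson correlation were *Cnih4* (r = 0.992), *Bcl2l12* and *Ifngr2* for *Ldha*, *Arf5* (0.938), *Thbs1* and *Fscn1* for *Slc16a1*, and *Ifitm3* (0.996), *Tspan4* and *Adam19* for *Rest*. For *Igfbp4* they were *Lrig3* (0.979), *Peak1* and *Rbms2*, for *Smad3* *Pip4k2b* (0.967), *Socs1* and *Htra3*, and for *Fgf1* *Vangl1* (0.974), *Adamts9* and *Slain2*. *Acot7* was nearest to *Txndc15* (0.919), *Traf5* and *Apip*, *Oat* to *Tiparp* (0.933), *Sept8* and *Poldip2*, and *Olfm1* to *Ccl27a* (0.910), *Kcnq1ot1* and *Ptpn13*. They were taken from 9904 genes. These points share libraries, depth and the large insulin share of 1 class, so these are descriptions.

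Among the 9 genes themselves, *Ldha* and *Rest* (r = 0.96) and *Igfbp4* and *Rest* (0.95) were most alike over the 16 sums, followed by *Igfbp4* and *Smad3* (0.88). *Olfm1* had values between -0.38 with *Ldha* and 0.08 with *Oat*. *Ldha* and *Slc16a1*, the enzyme and the carrier, stood at 0.60, with stellate barcodes high in the first and nearly empty of the second.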

How the data were processed

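The authors deposited raw counts of UMIs per gene and barcode for 2 libraries, made with Cell Ranger 3.1.0 on mm10 and limited to barcodes called as cells. Seurat 4.0.3 is also named in the submitters' processing notes. The counts were not normalized and not filtered by quality.

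Barcodes were kept with over 1000 genes, under 50000 UMIs, under 10% mitochondrial and at most 0.1% haemoglobin UMIs. UMIs were summed by class and library and scaled to CPM. Barcodes without a leading hormone at 10% of UMIs took the class with most distinct markers of 8, if at least 3 and more than for any other list. Doublets were not removed in the main analysis. Scrublet (in scanpy 1.11.5) marked 66 WT and 7 Npc1KO barcodes by its own threshold, so as an alternative the 317 and 261 with the highest scores, 0.8% per 1000 barcodes, were removed. Ratios had 0.5 counts added and are relative to the median gene. Poisson, Clopper-Pearson and conditional binomial intervals are exact, at 95%, and cover counting error only. A count of 0 is taken to allow up to 3 counts, a set limit that lies below the upper end of the exact interval. Each library was treated as 1 sample, with a summed depth from 533662 UMIs (Npc1KO macrophage) to 54792591 UMIs (WT insulin-led) per class, and genes below 1 CPM rest on few molecules. The interval procedure was tested on simulated counts that were drawn independently. Such counts do not clump by barcode, so the test cannot tell whether the intervals hold where UMIs clump.

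The genes, marker lists and related lists were chosen with earlier results of these data known. Named were the 9 genes, *Npc1*, the 3 genes most alike to each member among those with at least 20 CPM in 1 of the sums, and the 2 highest and 2 lowest ratios of each list, ordered by WT, apart from some that are not reported here. *Pcx*, *Ldhb*, *Smoc2*, *Yap1*, *Cxcl12*, *Lmo4*, *Tgm2*, *Col6a3* and *C1qa* were named after their values were seen. Scripts ran in Python 3.11.15 with scipy 1.17.1 for intervals, pandas 2.3.3 and numpy 2.4.6, and TMM factors came from edgeR 4.0.16 in R 4.3.3. Positions are those of the GENCODE annotation of mm10 for the files' gene identifiers.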

Additional observations from a re-analysis of the deposited data

Results flagged for a closer look

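*Olfm1* differed in direction between classes. Its log2 ratio of Npc1KO over WT relative to the median gene was 0.31 in insulin-led and 0.49 in *Ppy*/*Pyy*-led barcodes but -0.21 in glucagon-led and -5.17 in macrophage barcodes, and each interval excluded 0. The difference between the classes was not tested. The macrophage value compares 24 UMIs in WT with 0 in Npc1KO, which allows up to 3 counts, and its size depends on the counts added. Of the 24 UMIs 4 were left when the barcodes of highest doublet score were removed, and the interval of the ratio then included 0 (upper bound 0.69). Without those barcodes the ratios were 0.48 in insulin-led, 0.56 in *Ppy*/*Pyy*-led and -0.19 in glucagon-led barcodes.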

How the results depend on the processing

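The counts of genes at least 4-fold higher in endothelial, stellate, mesenchymal and macrophage barcodes stayed within 1.5 times of the reported ones under each alternative run. With a leading hormone at 25% of UMIs, the count of genes lowest in the insulin-led class became 0 instead of 6, and the counts of higher genes became 3 for glucagon-led, 4 for somatostatin-led and 1 for *Ppy*/*Pyy*-led barcodes. CPM without hormone genes and TMM factors each gave 2 genes lowest in the insulin-led class. For glucagon-led barcodes the count was 2 with the stricter cell filter, with doublets removed and without barcodes holding markers of another class. It was 5, as for somatostatin-led and *Ppy*/*Pyy*-led barcodes, when barcodes with a second hormone were also left out of the insulin-led class. That last step took barcodes with *Gcg* or *Sst* at 2% of UMIs from the insulin-led side only. Genes of those hormone-led classes were thus lowered there by the choice itself. The share of all genes is not given under any of these settings, so none of these counts can be set against it.

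Between genotypes, genes at least 1.5-fold higher in insulin-led barcodes numbered 3 with the stricter cell filter, 5 with doublets removed and 2 with the mean over cells, instead of 1. The share of all genes under these settings is not given, so the counts cannot be set against it. With doublets removed, *Rest* rested on 3 WT and 15 Npc1KO UMIs, *Acot7* on 3 and 10, and *Smad3* on 12 and 23. The intervals of *Acot7* and *Smad3* included 0. Genes lower numbered 0 with doublets removed and 1 without marker barcodes, with or without the second hormone, instead of 2. With doublets removed, *Acot7* (1.46) and *Igfbp4* (0.069), both at least 1.5-fold lower before, turned positive, and so did *Ldha* (1.08) and *Rest* (2.02), which had been lower by less than 1.5-fold. Of the 5 genes above the marker expectation, 3 were also above the median of *Sst*, *Hhex* and *Rbp4*, and all 5 above the median of a list of α cell genes with *Gcg*. Choices on a second hormone and on these α and δ cell genes were made after seeing the data. Of the values for single genes 384 stayed within their interval, 154 moved out of it, those of *Ldha* and *Rest* among them, and the 2 of *Acot7* and *Igfbp4* reversed. Ratios under 1.5-fold also changed sign within their interval for *Ldha*, *Rest* and *Slc16a1* under other settings. The causes were not tested, and sums below 1 CPM limit what can be told apart. No paired analysis was possible because each genotype has 1 library, and the shared number only names it.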
